A study of Mus musculus with 3 samples.

Results

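The Norrin ligand and its receptor complex were described here as 6 genes, *Ndp*, *Fzd4*, *Lrp5*, *Lrp6*, *Tspan12* and *Ctnnb1*, taken by symbol from a table of 33696 genes. Each symbol had 1 row. They were followed through endothelial cells (ECs), microglia, Müller glia, rods, amacrine cells and bipolar cells of 3 single-cell libraries of mouse retina at postnatal day 6. Cells had been enriched with magnetic beads against CD31 and CD11b. The WT library came from wild-type mice, the *Tspan12* KO library from mice with a constitutive loss of *Tspan12*, and the *Ctnnb1* cKO library from *Ctnnb1* flox/flox mice that carried *Pdgfb*-iCreERT and received tamoxifen daily from soon after birth. *Pdgfb*-iCreERT acts in ECs. All mice were of the C57BL/6 background, each library pooled several mice of 1 genotype, and neither knockout had the WT mice as littermates. With 1 library per genotype, genotype and library cannot be told apart, and no p-value or standard error is given.

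*Ndp* encodes Norrin, a secreted ligand made by glia of the retina. Norrin binds the receptor Frizzled-4, which works with the coreceptors LRP5 or LRP6 and with the tetraspanin TSPAN12. Beta-catenin, the product of *Ctnnb1*, carries the signal to TCF/LEF factors in the nucleus and also sits at cell junctions. Human mutations of *NDP*, *FZD4*, *LRP5*, *TSPAN12* and *CTNNB1* are known causes of familial exudative vitreoretinopathy, in which the retinal vessels fail to grow out fully.

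The deposited counts were UMIs (unique molecular identifiers, each marking 1 captured transcript), read at the 3′ end of transcripts. Levels are CPM, a gene's UMIs in all cells of 1 class and library, scaled to 1000000 UMIs of those cells. The 95% intervals, Poisson for a level and conditional binomial for a log2 ratio, are exact and hold counting error alone. After filtering, 8989 WT, 12732 *Tspan12* KO and 8451 *Ctnnb1* cKO cells were kept, and pairs of libraries shared 21 to 37 cell barcodes. The labels call the cells vascular, yet ECs made up 5.99% of kept WT cells, 2.27% of kept *Tspan12* KO cells and 32.1% of kept *Ctnnb1* cKO cells. There were 538, 289 and 2710 ECs, with medians of 15871.5, 14841 and 3359.5 UMIs per cell, in the same order. No EC, microglia, rod or amacrine marker was at 0 in its own class. No EC marker was at 0 in any of the 6 classes, so this does not check the names. In amacrine cells the rod markers summed to 2910, 2588 and 4003 CPM in WT, *Tspan12* KO and *Ctnnb1* cKO. The amacrine markers there summed to less, 2244, 2141 and 1739 CPM. *Abca8a* was at 0 in *Tspan12* KO Müller glia, *Aqp4* and *Abca8a* in *Ctnnb1* cKO Müller glia, and 4 of 16 bipolar markers in *Ctnnb1* cKO bipolar cells. Most *Ctnnb1* cKO rods, 1734 of 1807, lay in 1 cluster that held 21 WT rods. In that cluster 3 of 11 rod markers passed the thresholds used for naming. Most *Ctnnb1* cKO microglia, 1847 of 2130, lay in 1 cluster that held 18 of 283 WT microglia. The 8 microglia markers summed to 446 CPM in *Ctnnb1* cKO ECs, and to 125 CPM and 101 CPM in those of WT and *Tspan12* KO. The part of depth and of RNA from other cells in the differences between libraries was not tested. Classes were named from markers and are EC-like, microglia-like and so on, written without the suffix below.

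**Figure D1:**
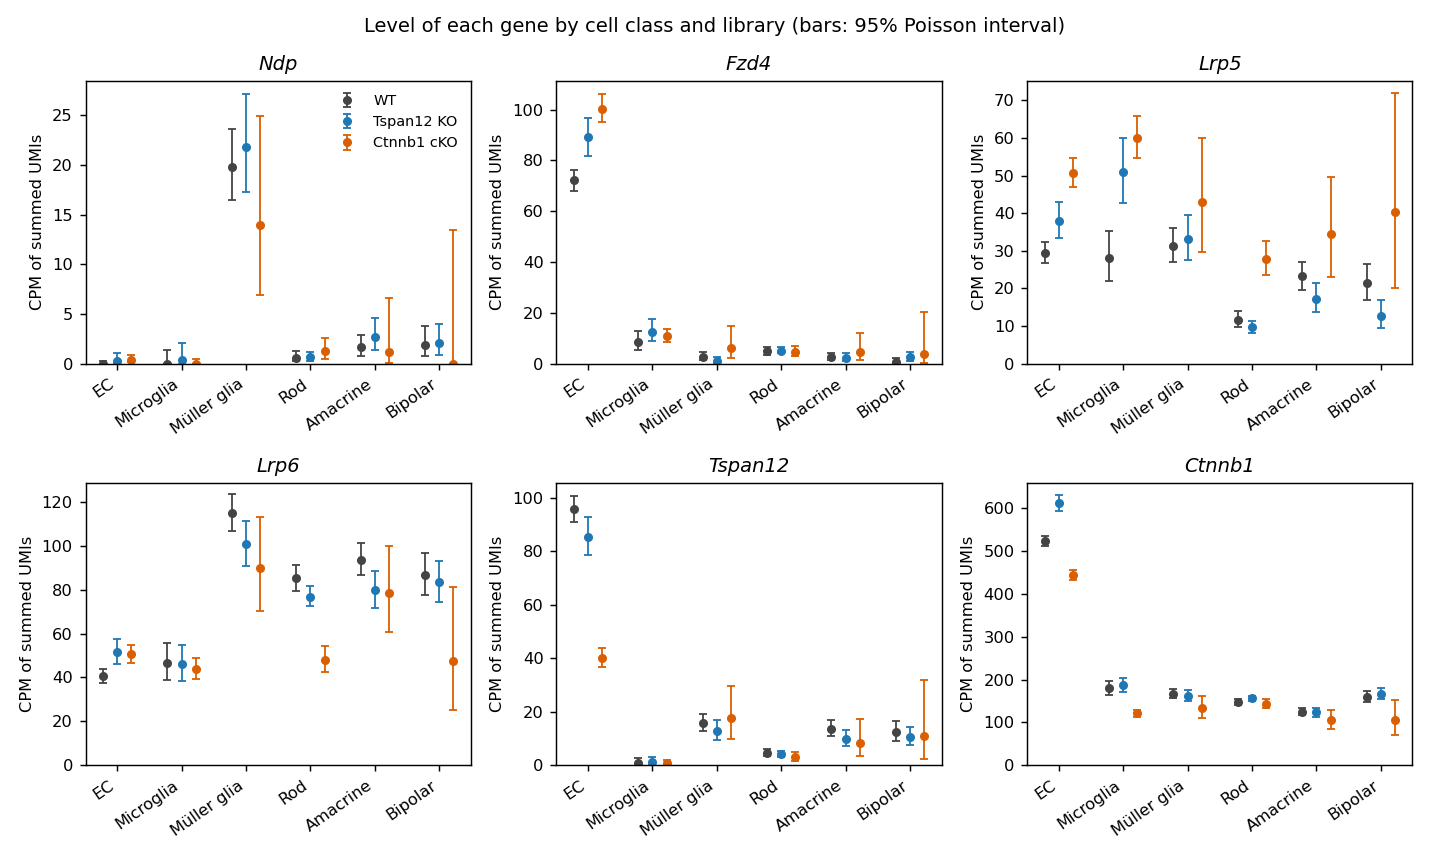
Level of each of the 6 genes (vertical axis, CPM of summed UMIs, starting at 0) in 6 cell classes (horizontal axis) of the 3 libraries (colours). Bars are 95% Poisson intervals. *Ndp* is highest in Müller glia, *Fzd4*, *Tspan12* and *Ctnnb1* are highest in ECs, and *Lrp5* and *Lrp6* are counted in every class.

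The ligand, *Ndp* (ENSMUSG00000040138), was highest, among the 6 classes, in Müller glia, the glia that span the retina. They held 54.2% of all *Ndp* UMIs of the WT library, 23.3% in *Tspan12* KO and 37.9% in *Ctnnb1* cKO. In *Tspan12* KO, cone-like cells, which are not among the 6 classes, held more, 194 UMIs or 55.9%, at a level of 3.64 CPM. Müller glia held 122 UMIs at 19.8 CPM (16.4 to 23.6) in WT, against 81 UMIs at 21.8 CPM (17.3 to 27.1) for *Tspan12* KO and 11 UMIs at 13.9 CPM (6.94 to 24.9) for *Ctnnb1* cKO. These 3 intervals overlapped. The log2 ratio to WT was 0.14 (−0.28 to 0.56) in *Tspan12* KO Müller glia and −0.51 (−1.55 to 0.38) in *Ctnnb1* cKO Müller glia. Neither interval excludes 0, so a difference of *Ndp* between libraries was not detectable at this depth. The *Ctnnb1* cKO value was −2.01 in cells taken by Müller markers cell by cell. That set held 3563 WT and 1022 *Ctnnb1* cKO cells, against 992 and 440 named Müller glia, so it includes many other cells. With each library clustered on its own the value was −2.97. The *Ctnnb1* cKO cells then named Müller glia were 90 cells led by *Crhbp*, *Optc* and *Folr1*, genes that otherwise led the pigment epithelium cluster. That value does not describe the same cells either. WT ECs held 0 *Ndp* UMIs, which allows a level of up to 0.186 CPM, so *Ndp* was at least 106-fold higher in WT Müller glia than in WT ECs. *Tspan12* KO ECs held 2 *Ndp* UMIs and *Ctnnb1* cKO ECs 5. WT microglia also held 0 *Ndp* UMIs, which made the level in WT Müller glia at least 17.3-fold higher. WT rods were at 0.601 CPM, amacrine cells at 1.63 CPM and bipolar cells at 1.84 CPM, and the intervals of these 3 levels overlapped. Astrocyte-like cells, the other retinal glia, were few. They held 8 *Ndp* UMIs over 21 WT cells at 46.3 CPM (19.97 to 91.1) and 8 UMIs over 48 *Tspan12* KO cells at 14.5 CPM (6.28 to 28.7). The share of Müller glia with an *Ndp* UMI, in cells thinned to 2000 UMIs, was 4.21% (3.02 to 5.69%) in WT, against 4.37% (3.03 to 6.08%) for *Tspan12* KO and 2.63% (0.546 to 7.50%) for *Ctnnb1* cKO. Thinned rods gave a background of 0.269%, 0.150% and 0.398%. Without thinning, the Müller shares were 94 of 992, 73 of 835 and 11 of 440 cells, at medians of 5700.5, 3944 and 1527.5 UMIs per cell, and the rod shares 0.413%, 0.278% and 0.387%, at medians of 3312, 1628 and 1550 UMIs.

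The receptor, *Fzd4* (ENSMUSG00000049791), was highest in ECs among the 6 classes, in all 3 libraries. ECs held 1163 UMIs at 72.1 CPM (68.0 to 76.4) in WT, against 580 UMIs at 89.0 CPM (81.9 to 96.5) for *Tspan12* KO and 1291 UMIs at 100.3 CPM (94.9 to 105.9) for *Ctnnb1* cKO. WT was the lowest, with an interval apart from both knockout libraries. The log2 ratio was 0.30 (0.16 to 0.45) for *Tspan12* KO and 0.48 (0.36 to 0.59) for *Ctnnb1* cKO. The first was −0.29 in cells taken by EC markers cell by cell instead of by cluster, and the second stayed above 0 in all 11 alternatives. Of cells taken that way, 33.2% in WT and 28.3% in *Tspan12* KO were in the EC clusters, against 89.4% in *Ctnnb1* cKO. Microglia came next in the order, at 8.37, 12.6 and 10.9 CPM, and the level in WT ECs was 8.62-fold that in WT microglia. The WT microglia level was 11.6% of that in ECs, while the 10 summed EC markers in WT microglia were at 2.09% of their EC level, and the highest single one at 7.55%. WT rods were at 4.81 CPM, and the interval of the ratio between microglia and rods had its lower bound just above 0. WT Müller glia, amacrine cells and bipolar cells were at 2.76, 2.67 and 0.790 CPM, and none of these neighbours differed beyond counting error. Mural-like cells, the pericytes and smooth muscle of vessels, carried *Fzd4* at 76.6, 84.8 and 127.5 CPM, from 15, 58 and 83 cells. Of thinned ECs, 10.96% (8.41 to 14.0%) had a *Fzd4* UMI in WT, against 14.2% (10.2 to 19.1%) for *Tspan12* KO and 17.3% (15.7 to 19.1%) for *Ctnnb1* cKO. The rod background was 1.25%, 1.27% and 1.72%, and thinning left out 18, 29 and 824 ECs. Without thinning the EC shares were 60.97%, 60.6% and 29.96%, where the *Ctnnb1* cKO cells were also the shallowest, and those of rods 3.03%, 2.07% and 1.44%.

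The coreceptor *Lrp5* (ENSMUSG00000024913) was counted in every class, and its log2 ratio of *Ctnnb1* cKO to WT was above 0 in all 6, with intervals above 0 in ECs, microglia and rods. ECs were at 29.5 CPM (26.9 to 32.2) in WT, against 38.1 CPM (33.5 to 43.1) for *Tspan12* KO and 50.7 CPM (46.8 to 54.7) for *Ctnnb1* cKO. No interval overlapped another. The log2 ratio in ECs was 0.37 (0.14 to 0.59) for *Tspan12* KO and 0.78 (0.61 to 0.96) for *Ctnnb1* cKO, but the first turned to −0.19 when each cell was thinned to 2000 UMIs. Microglia were at 28.1 CPM in WT and at 50.9 and 60.1 CPM in the knockout libraries in the same order, log2 ratios of 0.85 (0.44 to 1.28) and 1.10 (0.74 to 1.47). Both microglia ratios kept their direction in all 7 alternatives. Rods were at 11.7 CPM in WT, against 9.62 CPM for *Tspan12* KO and 27.7 CPM for *Ctnnb1* cKO, where the ratio reached 1.24 (0.89 to 1.60) on the log2 scale. The rod value rests mostly on the 1734 *Ctnnb1* cKO rods of the cluster that holds few WT rods. In the clusters that hold most WT rods the log2 ratio was 0.22. Those clusters held 73 *Ctnnb1* cKO rods with 218524 UMIs of all genes, so that value rests on few counts. Microglia, which are not ECs, differed from WT in the same direction as ECs. The *Ctnnb1* cKO microglia value rests mostly on the cluster that holds 18 WT microglia, and no alternative was limited to the other clusters. In Müller glia, amacrine and bipolar cells of that library the log2 ratios were 0.46, 0.57 and 0.92, with intervals that reach below 0, and with each library clustered on its own the first of them was −0.027 and the second −0.23. In *Tspan12* KO, amacrine cells at 17.2 CPM and bipolar cells at 12.7 CPM lay below their WT levels of 23.2 and 21.3 CPM, though thinned amacrine cells gave a log2 ratio of 0.14. Among WT classes, Müller glia, ECs, microglia, amacrine cells and bipolar cells, from 31.3 down to 21.3 CPM, did not differ from their neighbours beyond counting error. WT rods lay 1.82-fold below bipolar cells.

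The coreceptor *Lrp6* (ENSMUSG00000030201), which can stand in for *Lrp5* in Wnt signaling, was highest in Müller glia and lowest in ECs in the WT library. In WT it was at 115.0 CPM (106.7 to 123.8) in Müller glia, 93.6 CPM in amacrine cells, 86.6 CPM in bipolar cells, 85.2 CPM in rods, 46.8 CPM in microglia and 40.5 CPM (37.5 to 43.7) in ECs. Amacrine cells, bipolar cells and rods did not differ from one another as neighbours, nor did microglia and ECs. The step from rods to microglia was 1.82-fold. The knockout ECs were at 51.7 CPM (46.3 to 57.5) and, for *Ctnnb1* cKO, 50.6 CPM (46.8 to 54.6), log2 ratios of 0.35 (0.16 to 0.54) and 0.32 (0.16 to 0.48). The *Tspan12* KO value rested on 62 cells of 1 EC subcluster, and without that subcluster it was −0.17. The *Ctnnb1* cKO value was 0.0004 over the 31 ECs of that library in subclusters with at least 20 WT cells, and −0.44 in cells taken by EC markers cell by cell. Rods of the *Ctnnb1* cKO library were at 48.0 CPM (42.4 to 54.2), a log2 ratio of −0.83 (−1.03 to −0.63). It was −0.31 in the clusters that hold most WT rods, which held 73 *Ctnnb1* cKO rods. Microglia were at 46.0 CPM for *Tspan12* KO and at 44.0 CPM for *Ctnnb1* cKO, with intervals of the log2 ratio of −0.39 to 0.35 and −0.39 to 0.22.

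The tetraspanin *Tspan12* (ENSMUSG00000029669), which joins the Frizzled-4 complex and strengthens its response to Norrin, showed the largest EC difference among the 5 genes with at least 50 UMIs there. ECs held 1544 UMIs at 95.8 CPM (91.0 to 100.7) in WT, against 557 UMIs at 85.5 CPM (78.5 to 92.9) for *Tspan12* KO and 517 UMIs at 40.2 CPM (36.8 to 43.8) for *Ctnnb1* cKO. The *Ctnnb1* cKO ECs stand apart from both other libraries. Their log2 ratio was −1.25 (−1.40 to −1.11), a WT level 2.38-fold that of the knockout, and all 11 alternatives left it below 0, between −1.48 and −0.26. The value nearest to 0 came from cells taken by EC markers cell by cell. That set held 1037 WT cells, of which 33.2% were in the EC clusters. The share was 28.3% of 749 *Tspan12* KO cells and 89.4% of 1674 *Ctnnb1* cKO cells. The *Tspan12* KO ECs were at a log2 ratio of −0.16 (−0.31 to −0.02), and at −0.46 in thinned cells and −0.93 in cells taken by EC markers cell by cell, so the transcript's 3′ end was still counted in mice named for its loss. A knockout allele can keep its 3′ end, and these counts therefore do not check that label. Mural-like cells gave 94.9, 93.2 and 50.5 CPM in the 3 libraries, and the 23 UMIs of the last gave a log2 ratio of −0.91 (−1.68 to −0.19). Müller glia were at 15.9 CPM in WT, against 12.9 CPM for *Tspan12* KO and 17.7 CPM for *Ctnnb1* cKO, and the last had a log2 ratio of 0.16 (−0.77 to 0.97). WT amacrine and bipolar cells were at 13.7 and 12.4 CPM and, as neighbours in the order, did not differ from each other, nor amacrine cells from Müller glia, beyond counting error. Rods were at 4.71 CPM. Microglia were at the bottom in every library, with 2, 3 and 7 UMIs, or 0.761, 1.11 and 0.940 CPM. Of thinned ECs, 20.8% (17.4 to 24.5%) had a *Tspan12* UMI in WT, against 39 of 260 cells (10.9 to 19.9%) for *Tspan12* KO and 7.53% (6.38 to 8.81%) for *Ctnnb1* cKO. Thinned microglia gave 0.422%, 0.639% and 0.112%. Without thinning the EC shares were 73.6%, 61.2% and 15.8%, and those of microglia, at medians of 9587, 7442 and 3070 UMIs, were 0.707%, 0.809% and 0.282%.

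Promoters of the ligand, the receptor and the tetraspanin are shown because these 3 genes had the sharpest cell-class patterns and *Tspan12* differed most in *Ctnnb1* cKO ECs. RefSeq windows of the build GRCm38.p6 were used, and entries matched 4 of the 6 genes, with none used for *Lrp5* and *Lrp6*. Each line gives the 250 bases before the annotated start, on the strand of the gene. They lie at chrX:16911775-16912024 on the minus strand for *Ndp*, at chr7:89404116-89404365 on the plus strand for *Fzd4* and at chr6:21852534-21852783 on the minus strand for *Tspan12*. Capitals mark CTTTG, the core of the TCF/LEF motif, and AGGAAG, which holds the ETS core, on either strand.
Ndp: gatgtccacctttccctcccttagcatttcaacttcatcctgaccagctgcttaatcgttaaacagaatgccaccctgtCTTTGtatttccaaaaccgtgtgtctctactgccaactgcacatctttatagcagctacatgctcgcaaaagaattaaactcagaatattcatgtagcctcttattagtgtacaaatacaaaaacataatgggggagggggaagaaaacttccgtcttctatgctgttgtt
Fzd4: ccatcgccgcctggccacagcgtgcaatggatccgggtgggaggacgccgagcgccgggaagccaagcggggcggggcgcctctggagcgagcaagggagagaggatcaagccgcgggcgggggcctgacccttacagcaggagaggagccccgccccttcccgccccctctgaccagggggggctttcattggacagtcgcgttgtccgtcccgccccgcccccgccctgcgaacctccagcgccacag
Tspan12: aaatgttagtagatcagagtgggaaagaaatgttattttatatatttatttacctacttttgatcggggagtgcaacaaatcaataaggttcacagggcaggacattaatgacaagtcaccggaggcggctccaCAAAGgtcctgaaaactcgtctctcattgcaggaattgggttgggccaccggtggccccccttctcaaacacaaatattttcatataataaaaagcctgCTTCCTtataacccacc
*Ndp* and *Tspan12* each held 1 CTTTG match, forward 171 bases and reversed 116 bases before the start, and *Tspan12* held 1 AGGAAG match 17 bases before it. Neither CTTTG nor AGGAAG was in the *Fzd4* window. The ETS core on its own, shorter than AGGAAG, was not searched for in any window. CTTTG was in 48.6% and AGGAAG in 29.5% of all 32851 windows of this length, and the longer CTTTGAT, in 3.21% of them, was in none of the 3 shown. These matches describe the letters only.

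The transducer *Ctnnb1* (ENSMUSG00000006932) was highest in ECs in every library. ECs were at 524 CPM (513 to 535) in WT, against 612 CPM (593 to 632) for *Tspan12* KO and 444 CPM (432 to 455) for *Ctnnb1* cKO. The 3 intervals were apart. The log2 ratio was 0.23 (0.17 to 0.28) for *Tspan12* KO and −0.24 (−0.29 to −0.19) for *Ctnnb1* cKO. In the latter library microglia, which are not ECs, were at 121 CPM against 179 CPM in WT, a log2 ratio of −0.57 (−0.73 to −0.40), and Müller glia and bipolar cells were at −0.32 (−0.62 to −0.03) and −0.59 (−1.18 to −0.05). Rods gave −0.04 (−0.17 to 0.08). The interval of the log2 ratio in microglia lay below that in ECs. Most of these *Ctnnb1* cKO microglia lay in the cluster that held 18 WT microglia. A floxed allele can keep its 3′ end after recombination, and the counts do not check the label. The EC value of *Ctnnb1* cKO was 0.076 when only EC subclusters with at least 20 WT cells were used, which hold 31 ECs of that library. In cells taken by EC markers cell by cell both values changed sign, to −0.23 and 0.40. Most of those WT and *Tspan12* KO cells lay outside the EC clusters. Thinned ECs with 0 *Ctnnb1* UMIs were 35.6% (31.5 to 39.9%) in WT, against 30.4% (24.9 to 36.4%) for *Tspan12* KO and 45.9% (43.6 to 48.1%) for *Ctnnb1* cKO. ECs with 3 or more made up 10.4%, 16.9% and 6.36%. Thinned *Ctnnb1* cKO ECs thus still held a *Ctnnb1* UMI in 54.1% of cells, against 25.5% of thinned rods of that library. Without thinning these shares were 67.7% and 28.8%. Among WT classes other than ECs, levels ran from 179 CPM in microglia to 125 CPM in amacrine cells. From microglia through Müller glia and bipolar cells to rods, no neighbours in this order differed beyond counting error, while rods, at 148 CPM, were 1.18-fold above amacrine cells, a log2 ratio of 0.24 (0.11 to 0.36).

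**Figure D2:**
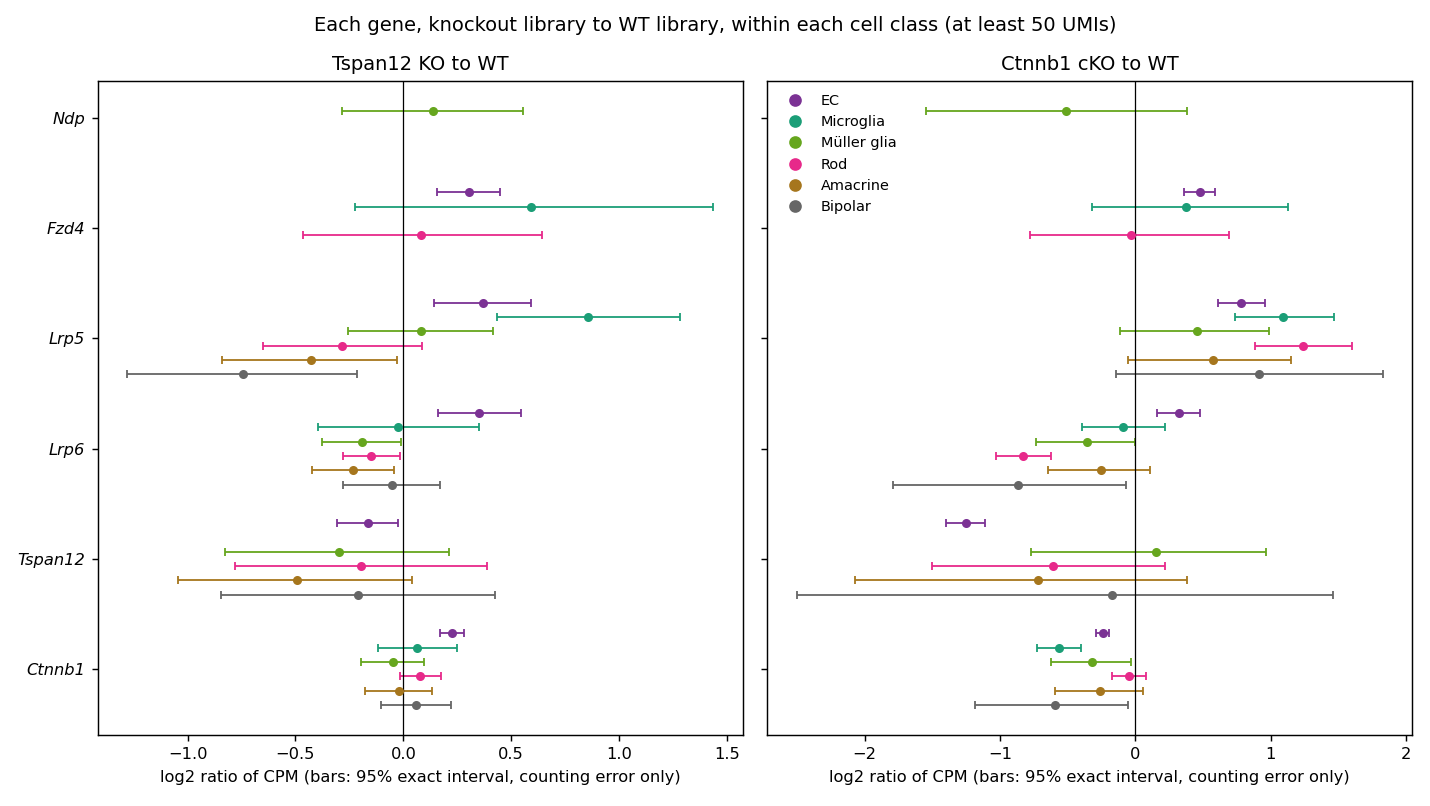
Log2 ratio of CPM (horizontal axis) of each gene in each cell class, *Tspan12* KO to WT on the left and *Ctnnb1* cKO to WT on the right, for pairs with at least 50 UMIs. Points are coloured by class and bars are 95% exact intervals for counting error. *Tspan12* in *Ctnnb1* cKO ECs is the farthest point to the left, at −1.25, and all 6 *Lrp5* points of that library lie to the right of 0.

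Few cells had UMIs of several receptor genes at once at this depth. Of thinned ECs, 41.2% (36.9 to 45.5%) in WT, against 34.6% (28.8 to 40.7%) for *Tspan12* KO and 36.7% (34.6 to 39.0%) for *Ctnnb1* cKO had a UMI of at least 1 of *Fzd4*, *Tspan12*, *Lrp5* and *Lrp6*. *Fzd4* and *Tspan12* were found together in 11 of 520 ECs in WT, against 6 of 260 for *Tspan12* KO and 21 of 1886 for *Ctnnb1* cKO, which is 2.12%, 2.31% and 1.11%. *Fzd4* and a coreceptor were found together in 1.54% (0.666 to 3.01%), 4.23% (2.13 to 7.44%) and 4.29% (3.43 to 5.31%) of ECs, in the same order.

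ECs were split into 10 subclusters to see how the genes vary among ECs. Subclusters 3, 6 and 9 held 537 of the 538 WT ECs, while 6 subclusters (1, 2, 4, 5, 7 and 8) held 0 WT cells and came almost wholly from the *Ctnnb1* cKO library. A subcluster taken from 1 library cannot be told apart from that library. *Fzd4* differed most between the *Ctnnb1* cKO subclusters. It was at 253.8 CPM (229.0 to 280.7) in subcluster 4, led by *Eln* and *Mgp*, and at 191 CPM (165 to 220) in subcluster 8, led by *Rasd1*. The other *Ctnnb1* cKO subclusters lay between 56.6 and 81.9 CPM, near the 72.2 CPM of WT cells in the capillary-like subcluster 3. Subclusters 4 and 8 held 21.0% of *Ctnnb1* cKO ECs and 44.5% of their *Fzd4* UMIs. *Lrp5* was at 131 CPM in subcluster 4 and between 30.5 and 48.0 CPM in the other *Ctnnb1* cKO subclusters. *Tspan12* varied little among the *Ctnnb1* cKO subclusters, from 36.8 to 52.3 CPM, and in each of them it lay below the 107 CPM (99.8 to 115.1) of WT capillary-like cells and the 87.4 CPM (81.2 to 93.9) of WT cycling cells in subcluster 6. The *Ctnnb1* cKO cycling cells of subcluster 5 were at 39.3 CPM (31.8 to 48.1). *Ctnnb1* was lowest among the *Ctnnb1* cKO subclusters in those cycling cells, at 368 CPM (344 to 393), and highest in subcluster 4, at 560 CPM (523 to 600). Among the *Ctnnb1* cKO subclusters, *Lrp6* ranged from 29.3 CPM in the cycling cells to 107.5 CPM in the arterial-like subcluster 7. Subcluster 10 held 62 *Tspan12* KO cells, 1 WT cell and 6 *Ctnnb1* cKO cells and was led by *Nkd1*, *Slco1a4* and *Efhd1*. Its *Tspan12* KO cells were at 736 CPM of *Ctnnb1* and 96.1 CPM of *Lrp6*, against 566 and 43.6 CPM in *Tspan12* KO capillary-like cells. Their *Tspan12* was at 85.5 CPM (72.1 to 100.5). Subcluster 9 was led by the haemoglobin gene *Hbb-bs*. It had the lowest *Fzd4*, 17.9 CPM in WT cells and 33.4 CPM in *Tspan12* KO cells.

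**Figure D3:**
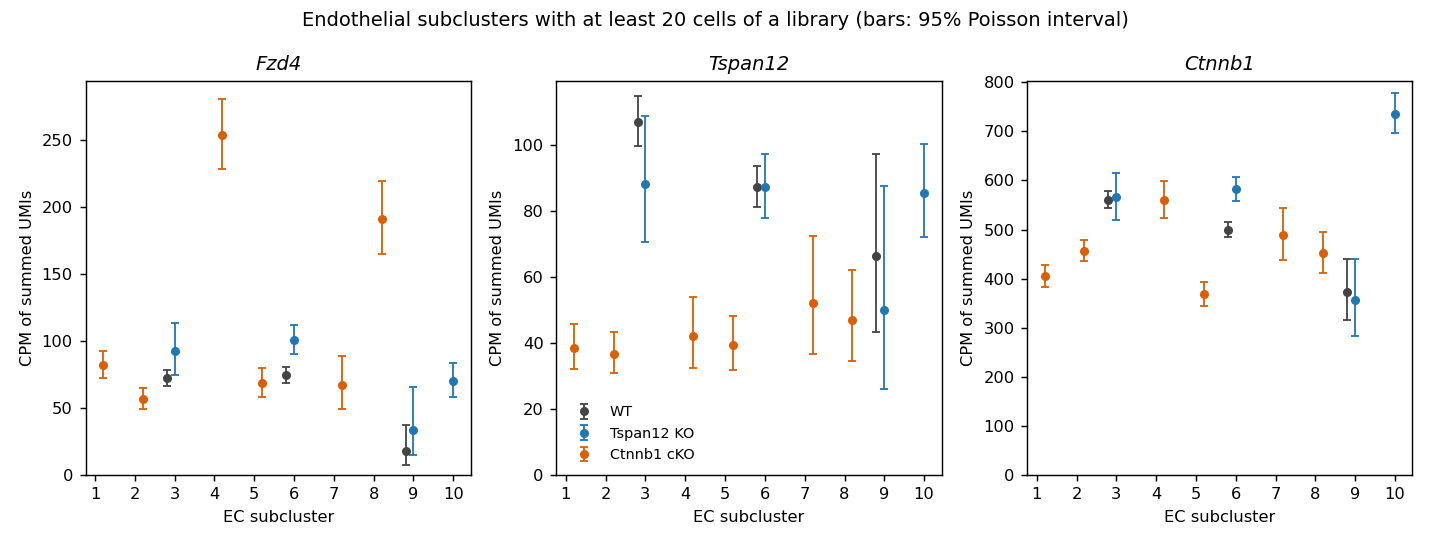
CPM of *Fzd4*, *Tspan12* and *Ctnnb1* (vertical axes, from 0) in EC subclusters 1 to 10 (horizontal axis), with 1 point per library that has at least 20 cells there and 95% Poisson intervals. *Fzd4* stands out in subclusters 4 and 8 of the *Ctnnb1* cKO library, and *Tspan12* of that library lies between 36.8 and 52.3 CPM throughout.

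The 6 genes were then read against all genes. A gene was counted as past 2-fold if its log2 ratio of (CPM + 5) was at least 1 or at most −1 and it had at least 50 UMIs over both libraries, with no test behind the count. In *Tspan12* KO ECs, 0 of the 5 members with enough UMIs (all but *Ndp*) were past 2-fold, where 0.557% of 12208 genes were higher and 1.13% lower. The median of the 5 was 0.29 and that of all genes 0.01. In *Ctnnb1* cKO ECs, 1 of 5, *Tspan12*, was lower and 0 were higher, where 5.14% of 12811 genes were lower and 4.01% higher. The median of the 5 was 0.29 and that of all genes −0.08. Scaling by TMM (trimmed mean of M values) moved the median of all genes in *Ctnnb1* cKO ECs to 0.02, and *Tspan12* remained past 2-fold. It was short of 2-fold over the 31 *Ctnnb1* cKO ECs in subclusters with at least 20 WT cells, at a log2 ratio of CPM of −0.78, and in cells taken by EC markers cell by cell, at −0.26. TMM scaling changed the split of all genes past 2-fold in *Ctnnb1* cKO ECs from 514 higher and 658 lower to 652 higher and 479 lower. In microglia, Müller glia, rods, amacrine cells and bipolar cells no member with enough UMIs was past 2-fold in either comparison, though with TMM scaling *Lrp5* in *Ctnnb1* cKO microglia was. Without the added 5 CPM, *Lrp5* in *Ctnnb1* cKO was 2.14-fold WT in microglia and 2.37-fold in rods. With it the log2 ratio was 0.97 in each, just short of 1. In the *Tspan12* KO comparison the shares of all genes higher and lower were 0.568% and 0.955% in microglia, 0.702% and 0.175% in Müller glia, 0.101% and 0.0697% in rods, 0.378% and 0.295% in amacrine cells, and 0.9% and 0.169% in bipolar cells. In the *Ctnnb1* cKO comparison they were 4.98% and 4.77%, 3.23% and 6.05%, 6.45% and 7.04%, 3.83% and 7.95%, and 3.42% and 11%, in the same order of classes.

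Around the complex, 89 further genes of Wnt signaling were read in ECs, in 6 groups. Of the 47 with at least 50 UMIs in the *Tspan12* KO comparison, 2 were past 2-fold higher and 0 lower. Of the 48 in the *Ctnnb1* cKO comparison, 2 were higher and 1 lower. Their medians were 0.10 and −0.05. Only 2 of 18 Wnt ligands passed 50 UMIs, *Wnt5b* and *Wnt4*, and 5 of the 9 other Frizzled receptors did. Among these, *Fzd6* was the highest at 130 CPM in WT, against 128 CPM for *Tspan12* KO and 129 CPM for *Ctnnb1* cKO, with log2 ratios whose intervals include 0. *Fzd3* stayed between 7.37 and 7.69 CPM, and *Fzd8* was at 6.51, 4.14 and 3.88 CPM. None of 7 receptor cofactors and turnover genes was past 2-fold. *Znrf3*, a ubiquitin ligase that removes Frizzled receptors from the cell surface, was at 79.4 CPM in WT, against 73.7 CPM for *Tspan12* KO and 43.6 CPM for *Ctnnb1* cKO, a log2 ratio of −0.87 (−1.01 to −0.72) for the last. *Lrp4* was at 60.3, 93.0 and 66.8 CPM, and *Ryk* at 62.3, 80.6 and 51.2 CPM.

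Among the 6 secreted and membrane inhibitors with at least 50 UMIs, *Apcdd1*, which is a known target of the pathway in retinal ECs, was at 155.6 CPM in WT, against 203.0 CPM for *Tspan12* KO and 97.9 CPM for *Ctnnb1* cKO. Its log2 ratios had opposite signs, 0.38 (0.29 to 0.48) and −0.67 (−0.77 to −0.57). *Apcdd1* was not computed without subcluster 10, so the part of that subcluster in the *Tspan12* KO value was not tested. *Tnfrsf19*, a TNF receptor family member, was past 2-fold higher in *Tspan12* KO ECs, at 71.8 against 30.9 CPM, a log2 ratio of 1.22 (1.03 to 1.40). That difference lay in 1 subcluster: without subcluster 10, *Tnfrsf19* was at 16.8 CPM and its log2 ratio was −0.88 (−1.24 to −0.54). *Dkk2*, a secreted ligand of LRP5 and LRP6, was at 9.80 CPM in WT, against 10.9 CPM for *Tspan12* KO and 49.9 CPM for *Ctnnb1* cKO, a log2 ratio of 2.35 (2.09 to 2.61) for the last. Without the arterial-like subcluster 7, which *Dkk2* leads and which held 0 WT cells, it was 1.06 (0.77 to 1.36). The *Tspan12* KO log2 ratio of *Dkk2* was 0.15 over all ECs and changed sign without subcluster 10. It was then −1.24 (−1.99 to −0.56), from 20 *Tspan12* KO UMIs at 4.15 CPM. None of 14 Dishevelled and destruction complex genes was past 2-fold. The 3 with the most UMIs were *Csnk1a1*, *Gsk3b* and *Apc*. *Csnk1a1* was at 357, 331 and 254 CPM, *Gsk3b* at 232, 264 and 244 CPM, and *Apc* at 113, 94.1 and 96.2 CPM.

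Among the partners of beta-catenin, *Cdh2*, or N-cadherin, was past 2-fold lower in *Ctnnb1* cKO ECs, at 679 CPM in WT, against 441 CPM for *Tspan12* KO and 290.1 CPM for *Ctnnb1* cKO. Its log2 ratio in that library was −1.23 (−1.28 to −1.17), and −0.04 (−0.31 to 0.20) over the 31 cells of that library in subclusters with at least 20 WT cells. *Cdh5*, or VE-cadherin, was at 675, 1066 and 771 CPM. *Jup*, or plakoglobin, which is related to beta-catenin and also binds cadherins, was past 2-fold higher in *Tspan12* KO ECs, at 224.6 against 103 CPM in WT and 152 CPM in *Ctnnb1* cKO. Its log2 ratio of 1.13 (1.02 to 1.23) was 1.07 without subcluster 10. *Bcl9l*, a coactivator of beta-catenin, was past 2-fold higher in *Ctnnb1* cKO ECs, at 40.6 against 16.0 CPM, a log2 ratio of 1.34 (1.12 to 1.56). Over the same 31 cells, which held 1 *Bcl9l* UMI, it was −1.66 (−6.97 to 0.83). The gene was at 33.1 CPM in *Tspan12* KO. The transcription factor *Lef1*, chosen after its values were seen, was at 259 CPM in WT, against 376 CPM for *Tspan12* KO and 350.2 CPM for *Ctnnb1* cKO, and *Ctnna1*, or alpha-catenin, at 324, 316 and 309 CPM. Neither gene was computed without subcluster 10. In Müller glia, 0 of 52 genes of the list were past 2-fold in *Tspan12* KO and 1 of 47 in *Ctnnb1* cKO, *Lrp4*, at 69.5 against 25.3 CPM in WT.

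**Figure D4:**
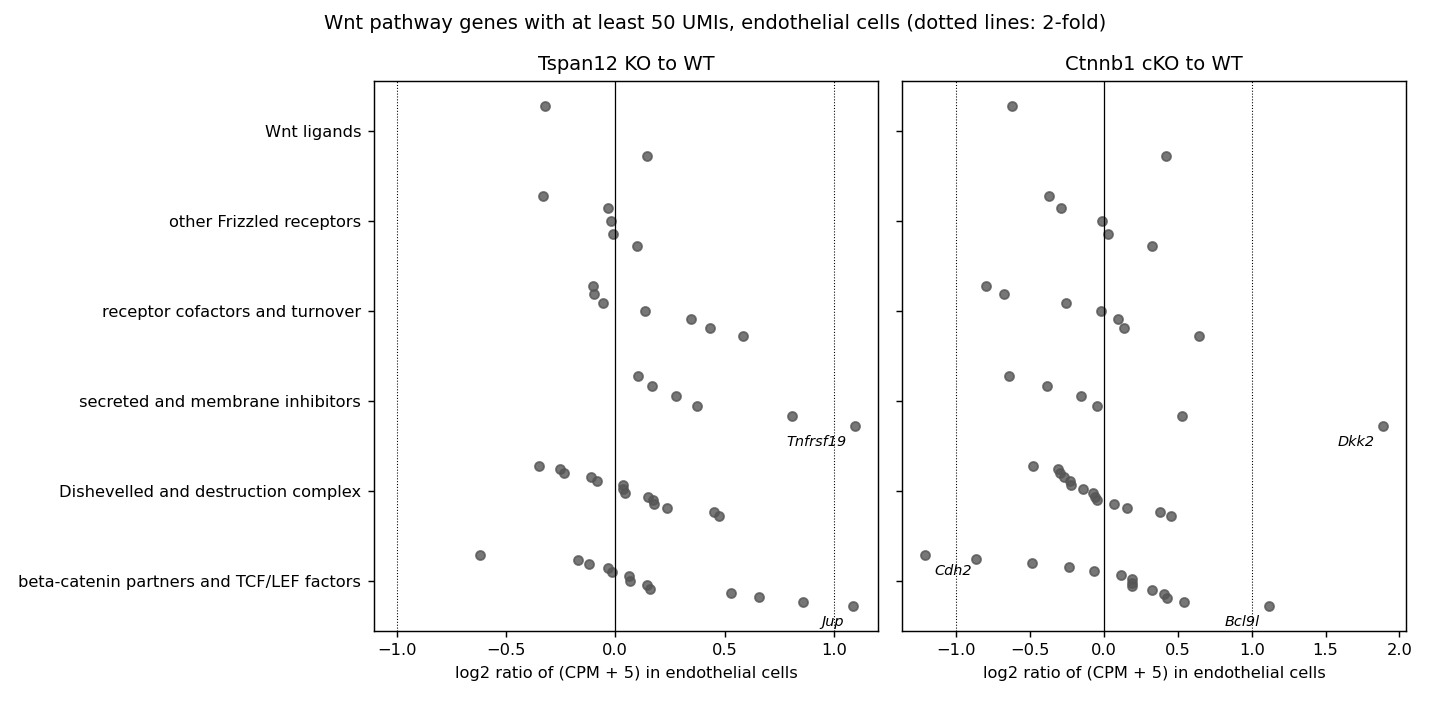
Log2 ratio of (CPM + 5) in ECs (horizontal axis) of the Wnt pathway genes with at least 50 UMIs, in 6 groups, for *Tspan12* KO to WT on the left and *Ctnnb1* cKO to WT on the right. Each point is a gene, the dotted lines mark 2-fold, and the genes past them are named: *Tnfrsf19* and *Jup* on the left, *Dkk2*, *Bcl9l* and *Cdh2* on the right.

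The genes whose pattern was most like each member were found by Pearson's r of log2(CPM + 5) over 31 sums of a class and a library with at least 50 cells, among 15626 genes. The points share libraries and depth, so r is a description. *Fzd4* was closest to *Tmem204* at 0.956, *Exoc3l4* at 0.946 and *Thsd1* at 0.945. *Tspan12* was closest to *Kctd17* at 0.941, *Agrn* at 0.912 and *Sptbn1* at 0.909. *Ndp* was closest to *Fxyd3* at 0.942, *Gm44190* at 0.932 and *Popdc3* at 0.925. *Ctnnb1* was closest to *Pls3* at 0.934, *Tnfaip1* at 0.892 and *Mall* at 0.884. The coreceptors had looser matches. *Lrp6* was closest to *Lars* at 0.864, *Ing3* at 0.840 and *Sirt5* at 0.822, and *Lrp5* to *Dst* at 0.760, *Irak1* at 0.750 and *Sash1* at 0.744.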

How the data were processed

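Retinal cells of 3 pooled samples, 1 per genotype, were measured on the 10x Chromium 3′ v3 kit. The deposited values are raw counts of UMIs per gene and cell, made by the authors with Cell Ranger. The matrix headers give version 8.0.1, the study's methods name another version, and the submitters' processing notes name GRCm39 where the methods name an older mouse build, so no gene coordinates are given. Promoter windows are RefSeq's, on GRCm38.p6.

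The filter required 250 genes and 500 UMIs per cell, with mitochondrial UMIs up to 15%. Likely doublets were found by comparison with simulated pairs, and 760 WT, 1656 *Tspan12* KO and 665 *Ctnnb1* cKO barcodes removed. Cells were clustered (scanpy 1.11.5, leidenalg 0.10.2) on 2000 variable genes without the 6 members, and clusters were named from fixed markers. Unnamed clusters held 39.0%, 31.3% and 1.30% of kept cells. Depth was 92684519, 137114957 and 37008362 UMIs per library. UMIs were summed per class and library, and intervals computed with scipy 1.17.1 cover counting error only. Genes under 50 UMIs over both libraries were left out of 2-fold counts. A count of 0 was given the limit of 3 counts. Sums, ratios and intervals were tested on simulated data.

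Named genes were the 6 members, the 3 pathway genes with most UMIs per group, pathway genes past 2-fold in ECs, and the 3 genes with the highest r to each member. The members and lists were chosen with earlier results of these data known. Alternatives were TMM scaling (edgeR 4.0.16), mean per-cell CPM, thinned cells, no doublet removal, other clusterings, a marker gate per cell (at least 3 class markers), and other gene minimums, pseudocounts and correlations.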

Additional observations from a re-analysis of the deposited data

Results flagged for a closer look

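Some log2 ratios had the opposite sign in ECs and in another class of the same library, each with an interval that excludes 0. The difference between classes was not tested. For *Lrp5* in *Tspan12* KO, ECs were at 0.37, amacrine cells at −0.43 and bipolar cells at −0.74. In thinned cells the first was −0.19 and the second 0.14, so the contrast of ECs and amacrine cells turned. For *Lrp6* in *Tspan12* KO, ECs were at 0.35, Müller glia at −0.19, rods at −0.15 and amacrine cells at −0.23. The EC value was −0.17 without the subcluster held mostly by *Tspan12* KO and −0.027 in thinned cells, amacrine cells were at 0.027 in thinned cells, and rods were at 0.14 by the mean of per-cell CPM. For *Lrp6* in *Ctnnb1* cKO, ECs were at 0.32, Müller glia at −0.36, rods at −0.83 and bipolar cells at −0.87. The EC value was −0.44 in cells taken by EC markers cell by cell. The Müller value was 0.18 in a finer clustering, which named 73 *Ctnnb1* cKO cells Müller glia.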

How the results depend on the processing

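No paired analysis was possible because each genotype has 1 library. Values are log2 ratios to WT, in ECs unless another class is named, T for *Tspan12* KO and C for *Ctnnb1* cKO. The cause of each move was not tested. The direction held in all 11 alternatives for *Fzd4* C (0.26 to 1.57), *Lrp5* C (0.41 to 0.97), *Tspan12* T (−0.93 to −0.15) and *Tspan12* C (−1.48 to −0.26). The marker gate per cell gave *Fzd4* T −0.29 and C 1.57, *Lrp5* T −0.059 and C 0.97, *Lrp6* T −0.081 and C −0.44, *Tspan12* T −0.93 and C −0.26, *Ctnnb1* T −0.23 and C 0.40, and in Müller glia *Ndp* T −0.37 and C −2.01 and *Ctnnb1* C 0.22. Thinned sums, the choices of EC subclusters and the choice of rod clusters were added after seeing the data. Thinned sums gave *Fzd4* T 0.46 and C 0.78, *Lrp5* T −0.19 and C 0.41, *Lrp6* T −0.027 and C 0.095, *Tspan12* T −0.46 and C −1.48, *Ctnnb1* C −0.39, and in amacrine cells *Lrp5* T 0.14 and *Lrp6* T 0.027. Only EC subclusters with at least 20 WT cells, which leave 31 *Ctnnb1* cKO cells, gave *Fzd4* C 0.26, *Lrp6* T −0.17 and C 0.0004, *Tspan12* C −0.78, *Ctnnb1* T 0.12 and C 0.076, *Tnfrsf19* T −0.89 and C −0.024, *Bcl9l* C −1.66 and *Jup* C −0.89. The same choice gave *Dkk2* T −1.39 and C 3.85. Without the subcluster held mostly by *Tspan12* KO, *Lrp6* T was −0.17, *Ctnnb1* T 0.12, *Tnfrsf19* T −0.88 and *Dkk2* T −1.24. TMM gave *Fzd4* C 0.62 and *Ctnnb1* C −0.10. The mean of per-cell CPM gave *Lrp6* T 0.13, *Ctnnb1* T 0.16 and C −0.40, *Lrp6* T in rods 0.14 and *Lrp5* T in amacrine cells 0.079. No doublet removal gave *Ctnnb1* T 0.16 and left no cluster named Müller glia. Clustering each library on its own gave *Ctnnb1* C −0.18, *Lrp5* C in amacrine cells −0.23, and in Müller glia *Ndp* C −2.97, *Lrp5* C −0.027 and *Ctnnb1* C 0.19, where the *Ctnnb1* cKO cells were led by genes of the pigment epithelium cluster. A finer clustering, which named 73 *Ctnnb1* cKO cells Müller glia, gave *Lrp6* C in Müller glia 0.18.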
